A study of Mus musculus with 6 samples.

Results

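Ammonia that periportal hepatocytes receive with the portal blood is turned into urea by 5 enzymes, Cps1, Otc, Ass1, Asl and Arg1, and Nags makes the activator without which Cps1 does not work. Hal, Sds and Gls2 release ammonia from histidine, serine and glutamine in the same cells. These 9 genes were described in whole liver of mice that had undergone partial hepatectomy, an operation that takes out liver lobes and sets off regrowth of the rest. They were listed by symbol for their place in this pathway, with earlier results of these data known, and all 9 had a row among the 12027 genes of the count table: Cps1 (ENSMUSG00000025991), Otc (ENSMUSG00000031173), Ass1 (ENSMUSG00000076441), Asl (ENSMUSG00000025533), Arg1 (ENSMUSG00000019987), Nags (ENSMUSG00000048217), Hal (ENSMUSG00000020017), Sds (ENSMUSG00000029597) and Gls2 (ENSMUSG00000044005).

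The study set hepatocyte-specific knockouts of Oga and of Ogt against their controls. OGT adds single O-GlcNAc sugars to nuclear and cytoplasmic proteins, and OGA takes them off again. All mice were male C57BL/6 of 8 weeks, and each library held equal amounts of RNA pooled from 3 mice, so that 6 groups gave 6 libraries of 1 per group. OGA-KO (genotype OGA-/-) and OGA control (OGAfl/fl) livers were taken 14 or 28 days after hepatectomy. OGT-KO (OGT-/y) and OGT control (OGTfl/y) livers were taken at 28 days. The Cre driver is not given in the sources used here, and OGT livers of 14 days were not used here.

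The urea cycle runs in part in the mitochondrion and in part in the cytosol. In the mitochondrion Cps1 joins ammonia and bicarbonate into carbamoyl phosphate, and Otc transfers this to ornithine. In the cytosol Ass1 and Asl bring in the second nitrogen from aspartate, and Arg1 splits off urea and returns ornithine. Hepatocytes around the central vein hold little of this machinery and instead fix the remaining ammonia in glutamine through Glul. Whole liver RNA does not show where in the lobule a transcript lay, so that the periportal position of these genes is background and was not measured. In bulk tissue, moreover, fewer hepatocytes and less RNA per hepatocyte cannot be told apart.

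The libraries held 20433100 to 29327722 counts, so that a count of 3 corresponded to 0.102 to 0.147 CPM (counts scaled to the library total), far below the level of any of the 9 genes. Oga was depleted in both OGA-KO libraries, with 9.62 CPM against 57.5 CPM in control at 14 days and 11.5 against 60.7 CPM at 28 days. Ogt had 58.5 CPM in the library labelled OGT-KO and 61.2 CPM in its control, so that the Ogt count does not bear out that label, and why was not tested. The 7 hepatocyte markers with a row summed to 75231 CPM in OGT-KO and to 79787 to 86285 CPM in the other 5 libraries. In the OGT-KO library the summed CPM of the cholangiocyte markers was 523 against 35.3 to 65.9 elsewhere. The stellate cell markers summed to 2162 CPM against 82.2 to 177, the macrophage markers to 1253 CPM against 142 to 314, and the markers of dividing cells to 138 CPM against 3.64 to 11.5. None of these markers was at 0 in any library, and no lymphocyte marker had a row. By the edgeR test described with the results, 26.1% of all genes rose and 26.6% fell in OGT-KO. Of the markers, 5 of 5 cholangiocyte, 7 of 7 stellate cell, 8 of 8 macrophage, 3 of 3 neutrophil and 3 of 3 dividing cell markers rose. In the same library 5 of 7 hepatocyte and 2 of 4 erythroid markers fell, and of 6 endothelial markers 1 rose and 3 fell. The part of these shifts in the levels of the 9 enzymes was not tested. Pancreas markers, 4 of 5 of them at 0 in the other 5 libraries, summed to 124.7 CPM in OGA-KO at 28 days and to 6.70 to 26.8 CPM elsewhere.

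In the library labelled OGT-KO, 8 of the 9 enzymes fell and none rose. Otc fell most, to 4.43-fold below its control, followed by Ass1 at 2.15-fold, Asl at 1.83-fold, Arg1 at 1.77-fold, Gls2 at 1.73-fold, Hal at 1.67-fold, Nags at 1.5-fold and Cps1 at 1.33-fold. Sds did not pass the test. The median log2 effect over the 9 genes was -0.79, and over all genes it was 0.00. Of all genes tested, 26.6% fell and 26.1% rose in this comparison. The test was edgeR's quasi-likelihood test over all 6 libraries with adjusted p under 0.05. Its spread came from the OGA pairs at 14 and 28 days, on 1 residual degree of freedom, which is taken to hold for the OGT livers too.

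How many of the 9 fell depended on the scaling. Effects were scaled by trimmed means of M-values (TMM), under which the median gene of the OGT pair did not differ, whereas deposited CPM are scaled by library totals, under which that gene lay 0.37 higher on the log2 scale. By library totals 5 of the 9 fell (Otc, Ass1, Asl, Hal and Gls2), beside 15.5% of all genes. With scaling by the sum of the hepatocyte markers, chosen for this test after the data were seen, Otc and Ass1 fell, beside 12.2% of all genes. Most of that sum was Alb, with 53564 of 75231 CPM in OGT-KO and 59389 of 82828 CPM in its control. By the DESeq2 Wald test 7 fell, without Nags, beside 14.0% of all genes. Without a term for the mouse line, so that the OGA controls also served as reference for OGT-KO, Otc alone of the 9 fell, beside 11.8% of all genes.

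**Figure D1:**
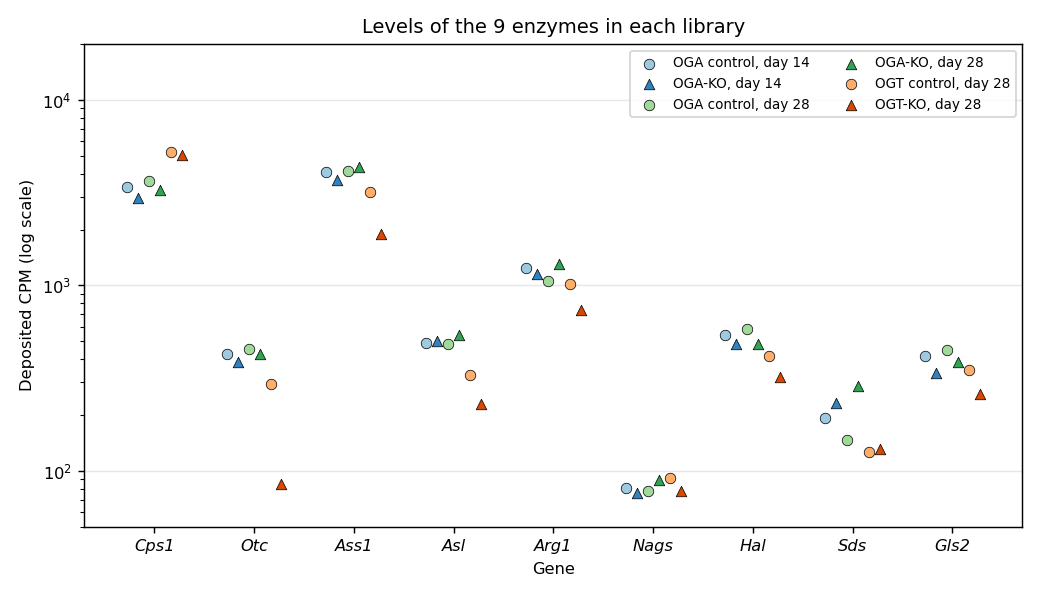
Deposited CPM (log axis) of each of the 9 enzymes (x axis) in each library. Circles are control and triangles are knockout libraries, coloured by pair, with 1 point per library and no error bars. Otc stands at 85.1 CPM in OGT-KO and at 294 to 454 CPM in the other 5 libraries, and Cps1 is higher in both OGT libraries than in the 4 OGA libraries.

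Of the mitochondrial steps, Otc showed the largest difference. Its level was 426 CPM in OGA control and 384 CPM in OGA-KO at 14 days, 454 CPM in OGA control and 425 CPM in OGA-KO at 28 days, 294 CPM in OGT control and 85.1 CPM in OGT-KO. The OGT-KO library lay far below the other 5, and the OGT control lay below all 4 OGA libraries. The log2 effect was -2.15 (SE 0.104, edgeR adjusted p = 0.000166), and 3.15% of all genes had a lower one. The adjusted p was 0.0226 without the line term.

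Cps1, the entry enzyme of the cycle, differed least among the enzymes that fell. It had 3397 CPM in OGA control and 2944 CPM in OGA-KO at 14 days, 3655 and 3272 CPM in the same groups at 28 days, 5235 CPM in OGT control and 5059.5 CPM in OGT-KO. Both OGT libraries were above all 4 OGA libraries, and the levels of the OGT pair were close, by deposited CPM. After TMM scaling OGT-KO, at 3731, lay below the OGA control of 28 days, at 4046. The log2 effect was -0.41 (SE 0.0917, edgeR adjusted p = 0.0148) after TMM scaling, -0.04 by library totals and 0.09 by hepatocyte markers, so that its sign depended on the scaling. The adjusted p was 0.552 without the line term, 0.0604 without the OGA control library of 14 days and 0.0596 without that of 28 days (both with no day term).

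Nags, which makes N-acetylglutamate, the activator of Cps1, had the lowest counts of the 9. Its levels were 80.5 and 75.9 CPM in OGA control and OGA-KO at 14 days, 77.6 and 88.8 CPM at 28 days, 91.3 CPM in OGT control and 78.1 CPM in OGT-KO. By deposited CPM the OGT-KO level lay inside the range of the other libraries, and after TMM scaling it was the lowest, at 57.6 against 82.4 to 98.7. The log2 effect of -0.59 (SE 0.129, edgeR adjusted p = 0.0140) became -0.22 by library totals, with adjusted p = 0.200. The call was also lost in the DESeq2 Wald test (adjusted p = 0.0679), without the line term (0.0665) and with hepatocyte marker scaling (0.662).

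Among the cytosolic steps, Ass1, which condenses citrulline with aspartate, had 4076 and 3686 CPM in OGA control and OGA-KO at 14 days, 4135 and 4369 CPM at 28 days, 3174 CPM in OGT control and 1895 CPM in OGT-KO. OGT-KO was the lowest of the 6 libraries and OGT control the next. The log2 effect was -1.11 (SE 0.115, edgeR adjusted p = 0.00120), which became -0.73 by library totals. Asl, which cleaves argininosuccinate into arginine and fumarate, had 489.6 and 499 CPM in OGA control and OGA-KO at 14 days, 484 and 543 CPM at 28 days, 329 CPM in OGT control and 231 CPM in OGT-KO. It kept the same order, OGT-KO lowest and OGT control next, with a log2 effect of -0.87 (SE 0.107, edgeR adjusted p = 0.00201). Without the line term the adjusted p was 0.0599 for Ass1 and 0.0765 for Asl.

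Arg1, which hydrolyses arginine to urea and ornithine and is also made by some macrophages, had 1246 and 1151 CPM in OGA control and OGA-KO at 14 days, 1058 and 1304 CPM at 28 days, 1017 CPM in OGT control and 737 CPM in OGT-KO. OGT-KO was again lowest, while the OGT control lay just under the lowest OGA library. The log2 effect was -0.83 (SE 0.160, edgeR adjusted p = 0.00918), and by library totals -0.45 with adjusted p = 0.0549. The macrophage markers of this library, with 8 of 8 risen, moved the other way, and their part in the Arg1 level was not tested.

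Of the ammonia-releasing enzymes, Hal, the histidine ammonia lyase, had 543 and 483 CPM in OGA control and OGA-KO at 14 days, 584 and 486 CPM at 28 days, 416 CPM in OGT control and 320.04 CPM in OGT-KO. Its log2 effect was -0.74 (SE 0.101, edgeR adjusted p = 0.00288). Gls2, the liver glutaminase, had 418 and 338 CPM in OGA control and OGA-KO at 14 days, 449 and 387 CPM at 28 days, 349 CPM in OGT control and 259 CPM in OGT-KO, with a log2 effect of -0.79 (SE 0.102, edgeR adjusted p = 0.00235). In both genes OGT-KO was the lowest of the 6 libraries. Neither call held without the line term, with adjusted p = 0.0838 for Hal and 0.0692 for Gls2.

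Sds, the serine dehydratase that yields pyruvate and ammonia, had 194 and 232 CPM in OGA control and OGA-KO at 14 days, 148 and 287 CPM at 28 days, 127 CPM in OGT control and 132 CPM in OGT-KO. The OGT libraries were both low and close to each other. The log2 effect was -0.31 (SE 0.241, edgeR adjusted p = 0.331), and it was 0.07 by library totals. Sds was thus the only 1 of the 9 whose OGT-KO effect did not pass the test after TMM scaling.

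**Figure D2:**
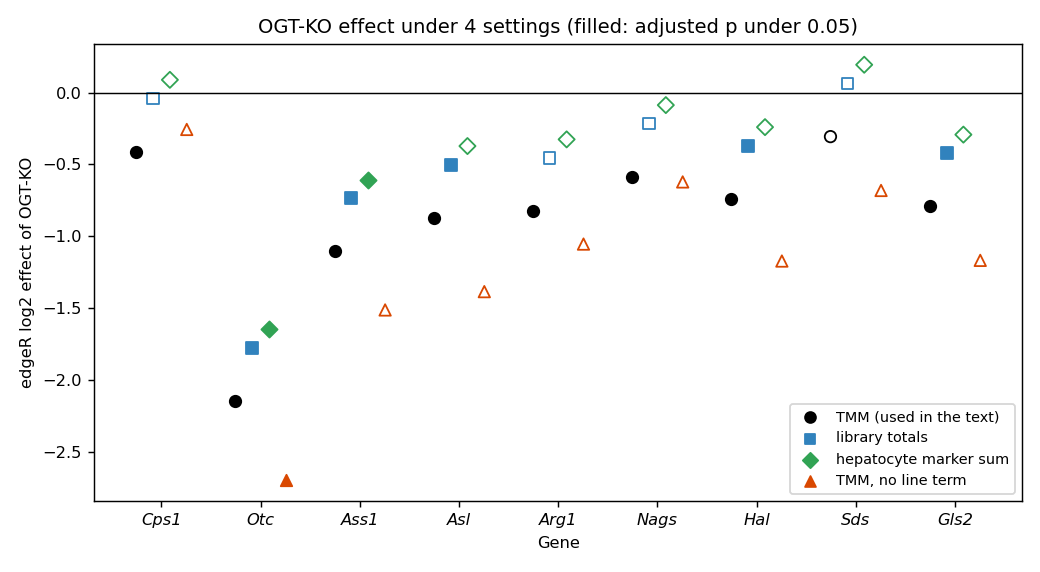
edgeR log2 effect of OGT-KO (y axis) on each of the 9 enzymes (x axis) under 4 settings, shown by symbol shape and colour. Filled symbols have adjusted p under 0.05. Otc is filled under all 4 settings, and Cps1 runs from -0.41 with TMM to 0.09 with hepatocyte marker scaling.

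Ratios of 2 genes inside a library do not depend on the scaling. In the 4 OGA libraries there were 0.124 to 0.130 Otc counts per Cps1 count, in OGT control 0.0561 and in OGT-KO 0.0168, so that the ratio was 3.34-fold lower in OGT-KO than in its control. Among the counts of the 5 cycle enzymes, Cps1 held 33.0% to 37.4% in the OGA libraries, 52.1% in OGT control and 63.2% in OGT-KO. The share of Ass1 went from 42.3% to 44.1% in the OGA libraries to 31.6% in OGT control and 23.7% in OGT-KO. The share of Otc was 4.29% to 4.63%, 2.92% and 1.06% in the same order. The makeup of the cycle transcripts was therefore shifted towards Cps1 in both OGT libraries and more so in OGT-KO. Together the 9 enzymes held 0.887% of all counts in OGT-KO (95% exact Clopper-Pearson interval 0.882% to 0.891%) and 1.10% in its control (1.10% to 1.11%). In the OGA libraries their share ran from 0.979% to 1.12%.

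Levels of different genes were compared per kilobase of exon sequence. On that scale Ass1 was the highest of the 9 in 5 libraries, at 1315 to 1810 CPM per kb, and fell behind Cps1 in OGT-KO, at 785 against 911 CPM per kb. Arg1 came after these at 331 to 585 CPM per kb in all 6 libraries. In the OGA libraries Otc, Asl, Gls2, Hal and Sds lay between 87.1 and 169.5 CPM per kb, ranges that overlapped each other. Nags was the lowest in 5 libraries, at 26.7 to 32.2 CPM per kb, and Otc in OGT-KO, at 20.1 CPM per kb. Cps1, Ass1 and Arg1 stood above the other 6 enzymes in every library.

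RefSeq promoter windows (GRCm38.p6) were matched for 4 of the 9 enzymes, Otc, Ass1, Nags and Hal. The 250 bases before the start site of the enzyme with the largest effect, of the next largest, and of Hal are printed. Any part of these sequences in the OGT-KO effects was not tested. Otc is at chrX:10252055-10252304, Ass1 at chr2:31470020-31470269 and Hal at chr10:93488518-93488767, all on the plus strand. Capitals mark matches to the motifs searched.
Otc: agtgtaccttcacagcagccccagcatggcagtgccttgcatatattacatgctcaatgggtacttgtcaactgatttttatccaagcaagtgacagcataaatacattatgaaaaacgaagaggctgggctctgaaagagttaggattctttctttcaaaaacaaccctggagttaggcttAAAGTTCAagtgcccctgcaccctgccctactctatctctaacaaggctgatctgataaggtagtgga
Ass1: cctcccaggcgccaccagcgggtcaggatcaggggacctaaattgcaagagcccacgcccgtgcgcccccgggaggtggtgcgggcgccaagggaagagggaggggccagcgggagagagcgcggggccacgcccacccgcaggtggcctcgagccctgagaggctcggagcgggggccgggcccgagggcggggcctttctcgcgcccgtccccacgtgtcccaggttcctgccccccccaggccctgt
Hal: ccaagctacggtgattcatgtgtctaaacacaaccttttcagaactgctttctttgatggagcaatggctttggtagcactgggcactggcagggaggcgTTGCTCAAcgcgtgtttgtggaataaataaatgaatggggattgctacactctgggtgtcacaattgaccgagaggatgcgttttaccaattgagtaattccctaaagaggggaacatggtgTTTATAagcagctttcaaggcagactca
GC content was 43.6% for Otc, 75.6% for Ass1, 45.6% for Hal and 55.6% for Nags, beside a median of 52.4% over all windows. The letters searched on both strands were TTGCNNAA (C/EBP), TGACGTCA (the cAMP response element), AAAGTCCA and AAAGTTCA (HNF4), the glucocorticoid response element and the TATA box (letters TATAAA). They occurred in 9.57%, 1.55%, 1.01%, 1.02%, 0.387% and 12.4% of 32817 windows of the same length. The Otc window holds AAAGTTCA at -68 to -61 from the start. The Hal window holds TTGCTCAA at -150 to -143 and TTTATA, the TATA letters on the other strand, at -28 to -23, and no 2 matches overlap. The letters were not in the Ass1 and Nags windows. These matches describe sequence and are not measured binding sites.

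The 2 control livers of 28 days also differed in these enzymes, although neither carried a knockout. The OGT control was lower than the OGA control in 7 of the 9 after TMM scaling. How many of all genes were lower in it was not counted. Otc differed most, with a log2 ratio of -0.85 (95% counting interval -0.89 to -0.81), followed by Asl at -0.78, Hal at -0.71, Ass1 at -0.61, Gls2 at -0.59, Sds at -0.44 and Arg1 at -0.28. Cps1 was higher, at 0.29, and Nags was at 0.01 (-0.08 to 0.10). By library totals these ratios ran from -0.63 for Otc to 0.52 for Cps1, with the same 7 genes lower. No enzyme reached 2-fold, which 10.4% of all genes did in either direction. With 1 library per group there is no replicate check, and intervals cover counting error only. No p-value given here measures the spread between pools of 3 mice from the same group. In the fit with line and day terms, the spread came from how the OGA-KO effect differed between the times. Any true change of that effect with time is part of this spread, and the OGT livers added nothing to it.

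In the OGA-KO livers none of the 9 enzymes passed the test. Across all genes 0.00832% fell and 0.0249% rose. In edgeR 4 of the 9 had an unadjusted p under 0.05 (Cps1, Hal, Sds and Gls2). The share of all genes at that level was not counted, so that these 4 are not read as an OGA-KO effect. The DESeq2 Wald test gave 0 of the 9 at that level and no adjusted call. The lowest edgeR adjusted p was 0.317, for Sds. Apart from Sds, no pair ratio of any enzyme exceeded 0.31 in size on the log2 scale.

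Cps1, Otc, Hal and Gls2 had lower values in OGA-KO than in control at both times. Their log2 ratios at 14 and 28 days were -0.20 and -0.15 for Cps1, -0.14 and -0.09 for Otc, -0.16 and -0.26 for Hal, and -0.30 and -0.21 for Gls2. The edgeR effects over both times were -0.18 (adjusted p = 0.356), -0.12 (0.506), -0.21 (0.337) and -0.26 (0.320). These differences exceeded counting error. Cps1, Hal and Gls2, but not Otc, had an unadjusted edgeR p under 0.05, and none passed after adjustment over all genes.

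Ass1, Arg1 and Nags had opposite signs at the 2 times. Ass1 had a log2 ratio of -0.14 (-0.15 to -0.13) at 14 days and 0.08 (0.07 to 0.10) at 28 days. Arg1 had -0.11 (-0.13 to -0.09) and 0.31 (0.29 to 0.33). Nags had -0.08 (-0.17 to 0.01), an interval that includes 0, and 0.20 (0.12 to 0.28). Asl was at 0.03 (-0.00 to 0.07) and 0.17 (0.14 to 0.20), and its 14-day value was -0.09 with hepatocyte marker scaling. With 1 library per group at each time the change between times was not tested.

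Sds was the enzyme with the largest OGA-KO ratios. It had 232 CPM in OGA-KO against 194 CPM in control at 14 days, a log2 ratio of 0.26 (0.21 to 0.31), and 287 against 148 CPM at 28 days, a log2 ratio of 0.96 (0.91 to 1.02). The OGA-KO libraries were the highest 2 of the 6. Per Cps1 count, Sds went from 0.0404 in control to 0.0878 in OGA-KO at 28 days, a 2.17-fold ratio. The edgeR effect over both times was 0.61 (SE 0.170, adjusted p = 0.317), and 97.3% of all genes had a lower one. It passed only when the OGA-KO library of 14 days was left out and the day term dropped, at 0.77 with adjusted p = 0.0298. The OGA-KO library of 28 days is also the one with the raised pancreas markers, whose part in the Sds level was not tested. At 2-fold or more either way there were 0 of the 9 enzymes in each OGA pair, where 0.839% of all genes at 14 days and 2.57% at 28 days reached it.

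**Figure D3:**
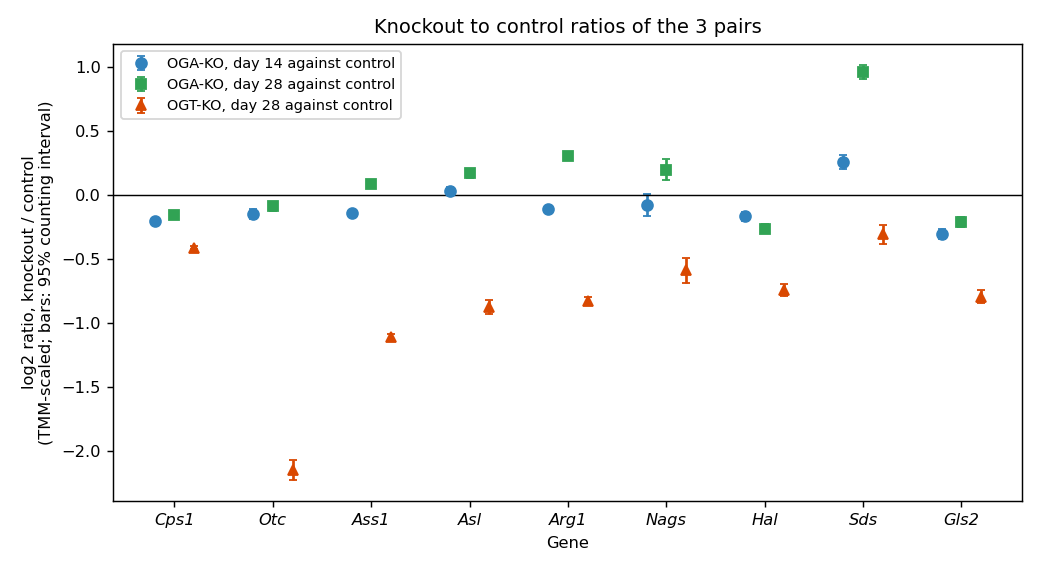
Knockout to control log2 ratio (TMM-scaled, y axis) of the 9 enzymes (x axis) in the 3 pairs, shown by colour and symbol. Bars are 95% counting intervals, which do not include variation between animals. The OGT-KO points lie below 0 for all 9 enzymes, at -2.15 for Otc, and the largest OGA-KO ratio is 0.96 for Sds at 28 days.

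The OGT-KO effect was lower than the OGA-KO effect by test in 7 of the 9 enzymes. This contrast set the OGT-KO effect at 28 days against the OGA-KO effect over both times, and 22.7% of all genes lay below 0 by test. The difference of the log2 effects was -2.03 for Otc (SE 0.124, edgeR adjusted p = 0.000519), -1.08 for Ass1 (0.00352) and -0.97 for Asl (0.00381). It was -0.92 for Arg1 (0.0155), -0.65 for Nags (0.0237), -0.54 for Gls2 (0.0205) and -0.53 for Hal (0.0213). Cps1 at -0.23 (adjusted p = 0.149) and Sds at -0.92 (0.0544) did not pass. Sds had the same size of difference as Arg1 with a larger spread between the OGA pairs. Otc and Ass1 passed by library totals and hepatocyte markers as well, and Otc alone without the line term, at adjusted p = 0.0273. At the 2-fold mark, Otc and Ass1 were the enzymes lower in the OGT pair, beside 11.7% of all genes, and by library totals Otc alone.

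Other genes feed the cycle with bicarbonate, aspartate and ornithine. Of 11 measured genes of transport and supply, 7 fell, 0 rose and 4 did not pass the test in OGT-KO, beside the 26.6% and 26.1% of all genes that fell and rose, with a median log2 effect of -0.64. By library totals 5 fell and 2 rose (median -0.27), where 15.5% of all genes fell and 44.4% rose. With hepatocyte marker scaling 3 fell and 3 rose (median -0.14), where 12.2% of all genes fell and 50.3% rose. Without the line term 4 fell, where 11.8% of all genes fell. Car5a, the mitochondrial carbonic anhydrase that provides bicarbonate for Cps1, had 77.4 to 89.3 CPM in the other 5 libraries and 2.23 CPM in OGT-KO, a log2 effect of -5.56 (edgeR adjusted p = 8.35e-05). This effect was lower than that of any of the 9 enzymes. Aqp9, a channel of hepatocytes that passes glycerol and urea, fell by 1.63 on the log2 scale, and Agmat, an agmatinase, fell by 1.32. The aspartate carriers differed less. Slc25a12 fell by 0.82 on the log2 scale, a call lost without the line term (adjusted p = 0.383), in the DESeq2 Wald test (0.132) and with hepatocyte marker scaling (0.141). Slc25a13, the liver form citrin, fell by 0.72, a call lost with hepatocyte marker scaling (0.220). The ornithine carrier Slc25a15 had 344 CPM in OGT-KO and 345 CPM in control; its log2 effect was -0.37 after TMM scaling (edgeR adjusted p = 0.0324) and 0.0063 by library totals (0.967). Those 2 carriers were chosen after their values were seen. Arg2, the mitochondrial arginase, had no row.

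Glutamine synthesis and glutamate transport were represented by genes that fell. Of 9 measured genes of glutamine handling, 6 fell, 1 rose and 2 did not pass, with a median of -2.16. Of all genes, 26.6% fell and 26.1% rose. Without the line term 3 fell and 1 rose, where 11.8% of all genes fell and 13.4% rose. Glul, the glutamine synthetase of pericentral hepatocytes, had 798 to 937 CPM in the OGA libraries, 1776 CPM in OGT control and 261 CPM in OGT-KO, and fell by 3.13 on the log2 scale (edgeR adjusted p = 0.000132). Slc1a2, a glutamate transporter of the same cells, had 134 to 200.4 CPM in the other 5 libraries and 4.37 CPM in OGT-KO, and fell by 5.59. Oat, the ornithine aminotransferase, fell by 2.26, a call lost without the line term (adjusted p = 0.0807). Per Gls2 count, Glul went from 5.09 to 1.01.

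The rest of the histidine route fell with Hal. Uroc1, Amdhd1 and Ftcd carry urocanate on to glutamate and the folate pool. Uroc1 had 532 to 652 CPM in the OGA libraries, 299.6 CPM in OGT control and 100.3 CPM in OGT-KO, and fell by 1.94 on the log2 scale (edgeR adjusted p = 0.000232). Amdhd1 had 263 to 296, 113 and 45.6 CPM in the same order and fell by 1.67, and Ftcd had 553 to 578, 235 and 135 CPM and fell by 1.16. The later genes of the route thus had larger effects than Hal, and the OGT control lay below the OGA libraries in all of them. Amdhd1 and Ftcd were named after their values were seen, and their calls were lost without the line term (adjusted p = 0.0622 and 0.0902). Of 13 measured genes of histidine, serine and glycine metabolism, 9 fell, 3 rose and 1 did not pass, with a median of -1.33. Of all genes, 26.6% fell and 26.1% rose. Without the line term 7 fell and 2 rose, where 11.8% of all genes fell and 13.4% rose.

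The 3 that rose were serine genes. Psat1, which makes phosphoserine, had 0.218 to 0.648 CPM in the OGA libraries, 2.19 CPM in OGT control and 28.3 CPM in OGT-KO, a rise of 3.32 (edgeR adjusted p = 0.00132). Psph, which completes serine synthesis, had 5.85 to 6.92 CPM in the other 5 libraries and 15.1 CPM in OGT-KO, a rise of 1.0 (adjusted p = 0.00710) that did not hold without the line term (0.0687) or in the DESeq2 Wald test (0.259). Psph was named after its values were seen. Sdsl, a relative of Sds, had 15.2 to 21.4 CPM in the other 5 libraries and 43.1 CPM in OGT-KO, a rise of 0.64 (adjusted p = 0.0140; 0.261 by DESeq2). Per Sds count, Sdsl went from 0.169 to 0.326. Agxt, the alanine-glyoxylate aminotransferase, fell by 1.87 and Shmt1, the cytosolic serine hydroxymethyltransferase, by 1.95.

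**Figure D4:**
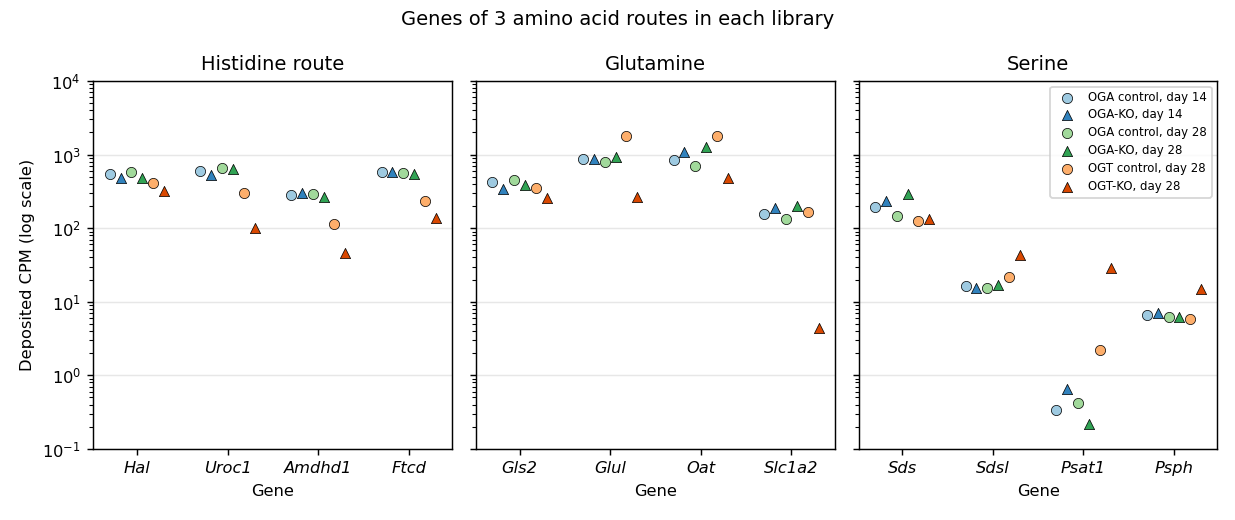
Deposited CPM (log axis) of genes of the histidine, glutamine and serine routes (x axis of each panel) in each library. Circles are control and triangles are knockout libraries, with 1 point per library. In OGT-KO, Psat1 at 28.3 CPM is above the other 5 libraries, and Slc1a2 at 4.37 CPM and Uroc1 at 100.3 CPM are below them.

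Genes that break down the other amino acids mostly fell. Of 27 measured, 22 fell, 2 rose and 3 did not pass, with a median of -1.53. Of all genes, 26.6% fell and 26.1% rose. Without the line term 18 fell and 0 rose, where 11.8% of all genes fell and 13.4% rose. Prodh2, a hydroxyproline dehydrogenase, fell by 3.10 on the log2 scale, Kynu, of the kynurenine route, by 2.82 and Prodh, of proline breakdown, by 2.62. The 2 that rose, named after their values were seen, were Acmsd at 1.34 and Cth, of cysteine synthesis, at 1.08. Neither rise held without the line term (edgeR adjusted p = 0.693 and 0.0762).

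Among 13 regulators linked to these enzymes, 9 fell, 0 rose and 4 did not pass, with a median of -0.84. Of all genes, 26.6% fell and 26.1% rose. By library totals 7 fell, with hepatocyte marker scaling 6 and without the line term 7, where 15.5%, 12.2% and 11.8% of all genes fell. Cebpa, a transcription factor of the mature hepatocyte, had 441 to 572 CPM in the OGA libraries, 767 CPM in OGT control and 213 CPM in OGT-KO and fell by 2.21 on the log2 scale (edgeR adjusted p = 0.000509). Sirt3, a mitochondrial deacetylase, fell by 1.92, Gcgr, the glucagon receptor, by 1.28 and Klf15, a factor of amino acid breakdown in fasting, by 0.99.

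Other genes known for their place in the lobule were counted on the same test. Of 12 other periportal genes, 5 fell, 4 rose and 3 did not pass, beside 26.6% and 26.1% of all genes that fell and rose, and their median of -0.24 became 0.13 by library totals. Pigr fell by 4.70 and Cyp2f2 by 4.54 on the log2 scale, and Fbp1, of gluconeogenesis, by 2.02. The 4 that rose were Hsd17b6 at 1.73, Ctsc at 0.89, Cdh1 at 0.87 and Aldh1b1 at 0.85. Of these, Hsd17b6 had 133 to 244 CPM in the OGA libraries, 9.74 CPM in OGT control and 41.5 CPM in OGT-KO, so that its direction turned without the line term (-1.91, adjusted p = 0.458). Ctsc, Cdh1 and Aldh1b1 were named after their values were seen, and the Ctsc and Aldh1b1 calls were lost without the line term (0.140 and 0.0604). Of 16 pericentral genes, 12 fell, 0 rose and 4 did not pass, beside the same shares of all genes, with a median of -1.5. By library totals 10 fell and 1 rose, where 15.5% of all genes fell and 44.4% rose. With hepatocyte marker scaling 10 fell and 4 rose, where 12.2% of all genes fell and 50.3% rose. Without the line term 6 fell, where 11.8% of all genes fell. Cyp1a2 fell by 5.74 on the log2 scale, Rgn by 4.10, Cyp2e1 by 3.72 and Lhpp by 2.98. The medians of these lists describe the genes chosen, and no difference between lists was tested.

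Over the 7 lists, 101 of 105 listed genes had a row, of which 70 fell and 10 rose in OGT-KO, beside 26.6% and 26.1% of all genes. By library totals 64 fell and 19 rose, where 15.5% of all genes fell and 44.4% rose. With hepatocyte marker scaling 58 fell and 24 rose, where 12.2% of all genes fell and 50.3% rose. Without the line term 49 fell and 4 rose, where 11.8% of all genes fell and 13.4% rose. In OGA-KO, 0 of the 101 passed the test in either direction, where 0.00832% of all genes fell and 0.0249% rose.

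**Figure D5:**
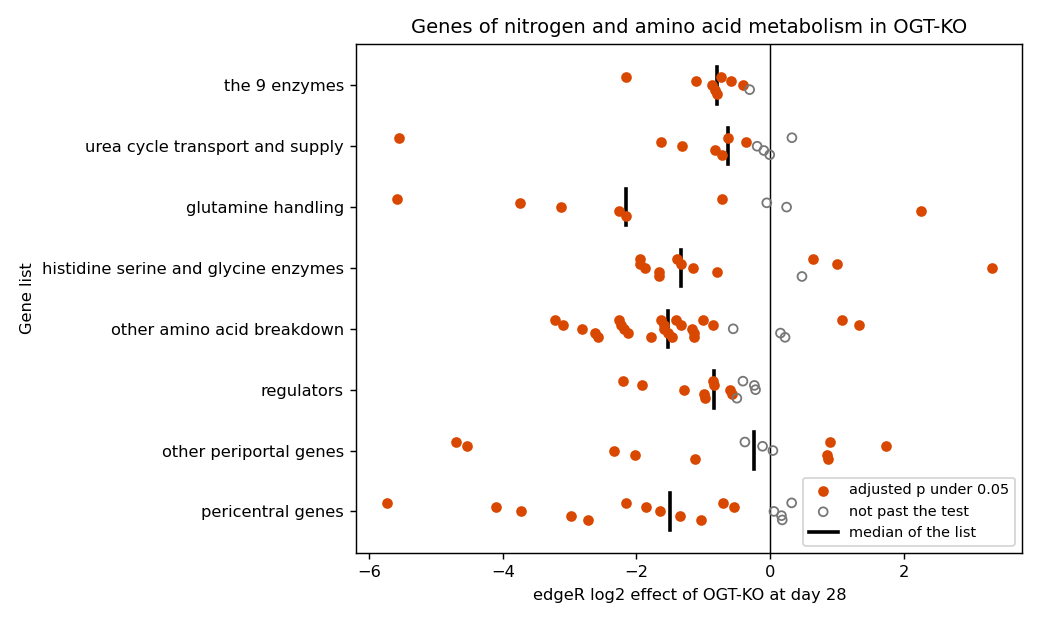
edgeR log2 effect of OGT-KO at 28 days (x axis) for every measured gene of the 9 enzymes and of 7 related lists (y axis). Filled points have adjusted p under 0.05, open points do not, and the black bar is the list median. The medians run from -0.24 for other periportal genes to -2.16 for glutamine handling.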

How the data were processed

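Messenger RNA of whole liver was sequenced in 6 libraries, 1 per group. Per the submitters' processing notes STAR, Subread, edgeR and the build mm39 were used, with versions and settings not given in the sources used here; per the labels' protocols libraries were made with the Tecan universal plus mRNA-seq kit from TRIZOL-extracted RNA. The deposited counts were whole numbers by Ensembl identifier, the lanes of a library already summed. The deposited CPM table held counts scaled by the authors to the library total; in the OGT columns 0.769% (OGT-KO) and 0.104% (control) of that total lay outside the rows. Reference annotation of another build (GRCm38) gave symbols to 12019 of 12027 identifiers and exon lengths, and no coordinates beyond RefSeq promoters.

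Counts were fitted in edgeR 4.0.16 (R 4.3.3) by glmQLFit and glmQLFTest with TMM scaling, filterByExpr (12026 genes tested) and Benjamini-Hochberg adjustment over all genes. Besides an intercept the 5 coefficients held mouse line, day and each knockout, leaving 1 residual degree of freedom. Pair ratios used a prior count of 2 and a 95% exact (Clopper-Pearson) interval on the share of 1 library in the summed count, which covers counting error only. The size rule was 2-fold with 1 CPM in the higher library. The fitting code was checked on simulated data. Alternatives were library totals, DESeq2 1.42.0 size factors and Wald test, no filter, no line term, hepatocyte marker scaling, a prior count of 10 and leaving out each OGA library (with no day term). Members, lists and markers were chosen with earlier results of these data known. Besides the 9 enzymes and Arg2, Glul and Sdsl, each list gave up to 4 genes with the largest OGT-KO ratio at 10 CPM or more, and the 3 genes nearest in pattern to each enzyme could be named; exceptions are said in place, and some genes the rule selects are not reported here.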

Additional observations from a re-analysis of the deposited data

Results flagged for a closer look

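The OGT-KO and OGA-KO effects differed from each other, by the edgeR contrast with adjusted p under 0.05, in 7 enzymes. Of all genes, 22.7% lay below 0 by the same contrast. The 7 became 3 by library totals, 2 with hepatocyte marker scaling and 1 without the line term. The share of all genes below 0 was not counted under those settings. The difference on the log2 scale was -2.03 for Otc, -1.08 for Ass1, -0.97 for Asl, -0.92 for Arg1, -0.65 for Nags, -0.54 for Gls2 and -0.53 for Hal, each negative because the OGT-KO effect was the lower.

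The OGA-KO ratio of 2 enzymes had opposite signs at 14 and 28 days, with counting intervals that excluded 0 at both times. At 28 days the log2 ratio was 0.08 for Ass1 and 0.31 for Arg1, while it was -0.14 and -0.11 at 14 days. This difference between times was not tested, since each time had 1 library per group.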

How the results depend on the processing

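No paired analysis was possible because each group has 1 library and the labels give no replicate numbers. DESeq2 size factors, a prior count of 10 and no filter changed no call or direction of the 9 enzymes. The 8 that fell in OGT-KO became 5 by library totals, 2 with hepatocyte marker scaling, 1 without the line term, 7 in the DESeq2 Wald test, and 7 to 8 when each OGA library was left out. The 7 below 0 in the contrast of both knockouts became 3, 2 and 1 in the same order, 4 with the DESeq2 Wald test, and 5 to 8 with a library left out. The 10 genes of related lists that rose became 19, 24 and 4. The 2 enzymes at least 2-fold lower became 1 by library totals and 1 by hepatocyte markers. The 0 enzymes that rose in OGA-KO became 0 to 1 with a library left out. Leaving out an OGA library did not change the OGT-KO effect sizes of the 9 enzymes, only their spread. With the line term those sizes come from the OGT pair alone, so that this is no check on them. Directions turned as follows. In OGT-KO, Cps1 was at 0.0895 by hepatocyte markers and Sds at 0.0654 by library totals and 0.19 by hepatocyte markers. In OGA-KO without the line term, Otc was at 0.10 and Ass1 at 0.15, and with a library left out Ass1 ran from -0.17 to 0.11 (0.006 without the OGA control library of 28 days), Arg1 from -0.0117 to 0.20 and Nags from -0.07 to 0.19. In the contrast, Cps1 was at 0.14 by library totals, 0.0067 without the line term and 0.32 by hepatocyte markers, where Hal was at 0.0302 and Gls2 at 0.0204. Hsd17b6 was at -1.91 without the line term. The cause was not tested. Depth limits none of the 9 enzymes, while the single pool per group leaves differences between animals unmeasured.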

Other observations

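Between 14 and 28 days the enzymes differed little. In OGA control the log2 ratio of 28 to 14 days was 0.14 for Cps1, Hal and Gls2, 0.12 for Otc, 0.05 for Ass1, 0.02 for Asl, -0.02 for Nags, -0.20 for Arg1 and -0.36 for Sds. In OGA-KO it was above 0 for all 9, from 0.04 for Hal to 0.34 for Sds. These ratios have no replicate check.

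The genes with the pattern most like each enzyme over the 6 libraries were found among 8063 genes by the root mean square distance between row-centred log2 CPM. Otc was nearest to Them7 and Qdpr (0.0709 each) and Ido2 (0.0718), Cps1 to Pik3c3 (0.0270), Hal to Dhrs7b (0.0350), Gls2 to Ppp4r4 (0.0513) and Nags to Srek1ip1 (0.0301). Ass1 was nearest to Slc6a13 (0.0607), Asl to Trappc6a (0.0376), Arg1 to Stap2 (0.0473) and Sds to Rdh5 (0.0955). Among the enzymes themselves Hal and Gls2 were closest (0.0826), then Ass1 and Asl (0.115), and Otc and Cps1 were farthest apart (1.09). These distances over 6 libraries are a description.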
